A study of Mus musculus with 12 samples.

Results

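The sarcomere is the contractile unit of striated muscle, and 33 genes that build it, anchor it at the Z-disc and M-band or keep it in repair were followed here. They were chosen by name as structural genes of the sarcomere and Z-disc, out of 21887 protein-coding genes of the mm10 RefSeq table. Each was described by the H3K27ac peaks called in its gene body and 10 kb on each side, called its locus here. H3K27ac, acetylation of lysine 27 on histone H3, is carried by active promoters and enhancers and was mapped by ChIP-seq. Whole hearts of newborn mice at postnatal day 0 (P0) were used. The edKO hearts (n = 3, numbered 1, 3 and 6) came from animals with a cardiomyocyte-specific RXRab-/- genotype, the loss of the retinoid X receptors alpha and beta in heart muscle cells. The WT hearts (n = 3, numbered 1, 3 and 4) were wild type at the same age. Each heart was a biological replicate of its own, per the labels, while the driver of the deletion and the strain were not stated there. The other cell types of an edKO heart keep the receptor genes, so in a whole heart fewer cells of a type and less mark per cell cannot be told apart.

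In a sarcomere, thin filaments of actin and tropomyosin slide along thick filaments of myosin, whose heads carry a pair of light chains each. Thin filaments are crosslinked at the Z-disc by alpha-actinin, and thick filaments are held at the M-band by myomesins. Around birth the heart still carries fetal or atrial isoforms, such as skeletal alpha-actin and the atrial light chains Myl4 and Myl7, beside the isoforms of the adult ventricle. Serum response factor, which binds the CArG box, and MEF2 factors are well-known activators of muscle promoters.

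The 6 peak lists differed in length. They covered 66.6, 47.9 and 62.6 Mb in edKO hearts 1, 3 and 6, and 67.4, 68.3 and 59.1 Mb in WT hearts 1, 3 and 4. The list of edKO heart 3 was the shortest by this measure. Read depth per heart is unknown, so a region missing from a list was not called, which does not mean that the mark was absent. The heart muscle identity of the tissue could be read from the lists: all 7 cardiomyocyte markers checked, Tnnt2 and Nkx2-5 among them, held a called region in every heart. The covered lengths of these 7 loci summed to between 138883 and 185355 bp in edKO hearts and between 174709 and 182148 bp in WT hearts. Of 12 skeletal muscle markers, 8 held a called region in every heart, the regulators Myog and Myf6 among them, and 2, the regulators Myod1 and Pax7, held none in any heart. The skeletal list summed to between 23600 and 30518 bp in edKO hearts and between 27474 and 30584 bp in WT hearts. Peak lists hold no transcript level of the deleted receptor genes, so the genotype labels were not checked by them. A locus can also take in regions of a neighbour, as that of Des takes in part of Speg and that of Myl4 part of Cdc27. The locus of Tmod1 takes in part of Tdrd7 and Tstd2, that of Tcap part of Stard3 and Pgap3, and that of Myom1 part of Myl12a.

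The promoters show how differently the members are built and marked. RefSeq promoter windows of GRCm38.p6, the build also known as mm10, were found for 28 of the 33 members. The windows run from 250 bases before to 50 bases after the annotated start, 300 bases in all. Myom2, Tcap, Cryab, Xirp1 and Nexn had no entry. Below are the windows of the atrial and ventricular light chains, of cardiac actin, and of Xirp2 and Trim54, whose promoters were covered differently in the edKO and WT hearts. Capitals mark every match, on either strand, to a TATA box (TATAAA), a CArG box or a MEF2 site. They also mark a GATA site (AGATAA), an MCAT site (CATTCC) or the sequence TNNAAGTG, and matches may overlap.
Myl4 (chr11:104550413-104550712, plus strand): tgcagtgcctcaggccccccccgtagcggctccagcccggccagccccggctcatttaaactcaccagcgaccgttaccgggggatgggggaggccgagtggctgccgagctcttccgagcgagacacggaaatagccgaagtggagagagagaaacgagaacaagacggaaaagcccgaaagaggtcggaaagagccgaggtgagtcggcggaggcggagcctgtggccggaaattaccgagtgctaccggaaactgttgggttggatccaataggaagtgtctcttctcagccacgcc
Myl3 (chr9:110763428-110763727, plus strand): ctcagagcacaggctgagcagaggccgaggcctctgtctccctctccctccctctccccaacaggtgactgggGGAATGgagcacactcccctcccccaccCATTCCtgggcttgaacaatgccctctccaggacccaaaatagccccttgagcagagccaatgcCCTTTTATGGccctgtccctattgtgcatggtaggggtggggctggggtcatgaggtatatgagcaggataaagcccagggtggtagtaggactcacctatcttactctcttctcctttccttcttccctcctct
Myl7 (chr11:5898733-5899032, minus strand): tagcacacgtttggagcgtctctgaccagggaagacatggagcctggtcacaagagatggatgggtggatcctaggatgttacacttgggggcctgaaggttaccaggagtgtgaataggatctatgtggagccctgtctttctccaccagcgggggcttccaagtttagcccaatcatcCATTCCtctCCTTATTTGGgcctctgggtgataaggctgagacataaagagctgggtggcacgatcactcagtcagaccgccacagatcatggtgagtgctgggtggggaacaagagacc
Myl2 (chr5:122092474-122092773, plus strand): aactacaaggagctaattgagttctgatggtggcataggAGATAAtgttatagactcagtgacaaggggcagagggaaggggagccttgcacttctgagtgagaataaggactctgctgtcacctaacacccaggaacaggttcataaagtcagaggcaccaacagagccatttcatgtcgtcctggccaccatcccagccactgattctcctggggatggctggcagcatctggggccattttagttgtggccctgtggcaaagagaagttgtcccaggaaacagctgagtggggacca
Actc1 (chr2:114052826-114053125, minus strand): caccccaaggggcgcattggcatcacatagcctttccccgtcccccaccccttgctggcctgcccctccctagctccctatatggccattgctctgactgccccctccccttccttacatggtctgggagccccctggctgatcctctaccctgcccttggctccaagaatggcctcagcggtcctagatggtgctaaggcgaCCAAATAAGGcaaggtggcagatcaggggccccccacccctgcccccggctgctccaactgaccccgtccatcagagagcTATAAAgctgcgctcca
Xirp2 (chr2:67445752-67446051, plus strand): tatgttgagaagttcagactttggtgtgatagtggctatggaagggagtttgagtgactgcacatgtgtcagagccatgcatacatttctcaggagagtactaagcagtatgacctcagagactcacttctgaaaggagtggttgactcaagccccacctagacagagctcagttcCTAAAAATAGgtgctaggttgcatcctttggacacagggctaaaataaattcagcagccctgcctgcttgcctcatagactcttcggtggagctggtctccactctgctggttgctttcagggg
Trim54 (chr5:31116362-31116661, plus strand): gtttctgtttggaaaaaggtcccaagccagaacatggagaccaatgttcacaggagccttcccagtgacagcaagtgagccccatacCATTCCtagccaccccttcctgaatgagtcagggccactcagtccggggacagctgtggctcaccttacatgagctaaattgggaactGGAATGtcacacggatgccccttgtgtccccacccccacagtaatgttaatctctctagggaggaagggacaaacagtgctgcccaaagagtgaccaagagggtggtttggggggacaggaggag

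A CArG box was found in 7 of the 28 member windows (25.0%), against 1.54% of 17492 promoter windows of all genes. The 7 were Acta1 and Actc1, the skeletal and cardiac alpha-actins, the light chains Myl3 and Myl7, Myom1, Fhl2 and Vcl. A MEF2 site lay in 4 member windows (14.3%, against 1.73% of all), those of Mybpc3, Myoz2, Synpo2l and Xirp2. MCAT sites lay in 11 windows (39.3%, against 13.4%), GATA sites in 6 (21.4%, against 9.96%) and TATA boxes in 4 (14.3%, against 13.3%). The spelling searched for NKX2-5, TNNAAGTG, was found in 1 window (3.57%, against 11.7%), that of Unc45b. It differs from the usual site of that factor, so this count does not describe NKX2-5 sites. E-boxes (CANNTG), which were searched but not put in capitals, lay in 24 windows (85.7%, against 68.8%). A direct repeat spaced by 1 base (AGGTCANAGGTCA), a sequence that retinoid X receptor dimers can bind, was searched likewise and had 0 exact matches in the member windows, against 0.0515% of all. These are matches of letters in a short window and were not tested as binding sites.

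Of the 33 members, 32 held called regions and all 32 passed the filter of a mean covered length of at least 500 bp. No entry of the lists as used here lay in the locus of Acta1 (chr8:123891758-123894775), so its mark was not analysed here. Nor was the planned comparison of Acta1 with Actc1. As a group the members were heavily marked. Their median locus stood at percentile 91.4 of 14317 tested loci by covered length and at percentile 93.5 by the percentage of the locus that was covered. By each measure 19 of the 32 lay in the top 10% of loci. These genes were picked as heart muscle genes, so this rank is a description of the choice as much as of the hearts.

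The strongest peak of a member mostly ranked near the top of its list. By the authors' fold enrichment, the median over members of the strongest entry's percentile within the list was 97.1, 97.0 and 97.4 in edKO hearts 1, 3 and 6, and 98.5, 97.4 and 97.9 in WT hearts 1, 3 and 4. Ranks from lists of unequal length cannot show whether the mark changed between hearts. The members together took 0.628%, 0.676% and 0.680% of all covered bases in the edKO hearts, against 0.664%, 0.629% and 0.691% in the WT hearts. These shares overlapped between the genotypes.

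The most densely marked locus was that of Tcap, telethonin, which caps titin at the Z-disc, with 53.0% of the locus covered in edKO hearts and 61.5% in WT hearts on average. Of its regions called in all 6 hearts, only that of 3382 bp overlaps Tcap. Those of 2339 and 4667 bp overlap Stard3 and that of 5116 bp overlaps Pgap3, so this density cannot be assigned to Tcap alone. Next came Csrp3, the muscle LIM protein of the Z-disc, with 50.1% in edKO hearts and 59.9% in WT hearts. Synpo2l, an actin-binding protein of the Z-disc, had 46.5% covered in either genotype. The sparsest were Trim54, a ubiquitin ligase of the M-band and microtubules, with 1.17% in edKO hearts and 1.95% in WT hearts, Xirp2, an actin-binding repeat protein of the intercalated disc, with 2.38% in edKO hearts and 1.31% in WT hearts, and Nebl, nebulette of the Z-disc end of thin filaments, with 1.98% in edKO hearts and 2.42% in WT hearts.

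**Figure D1:**
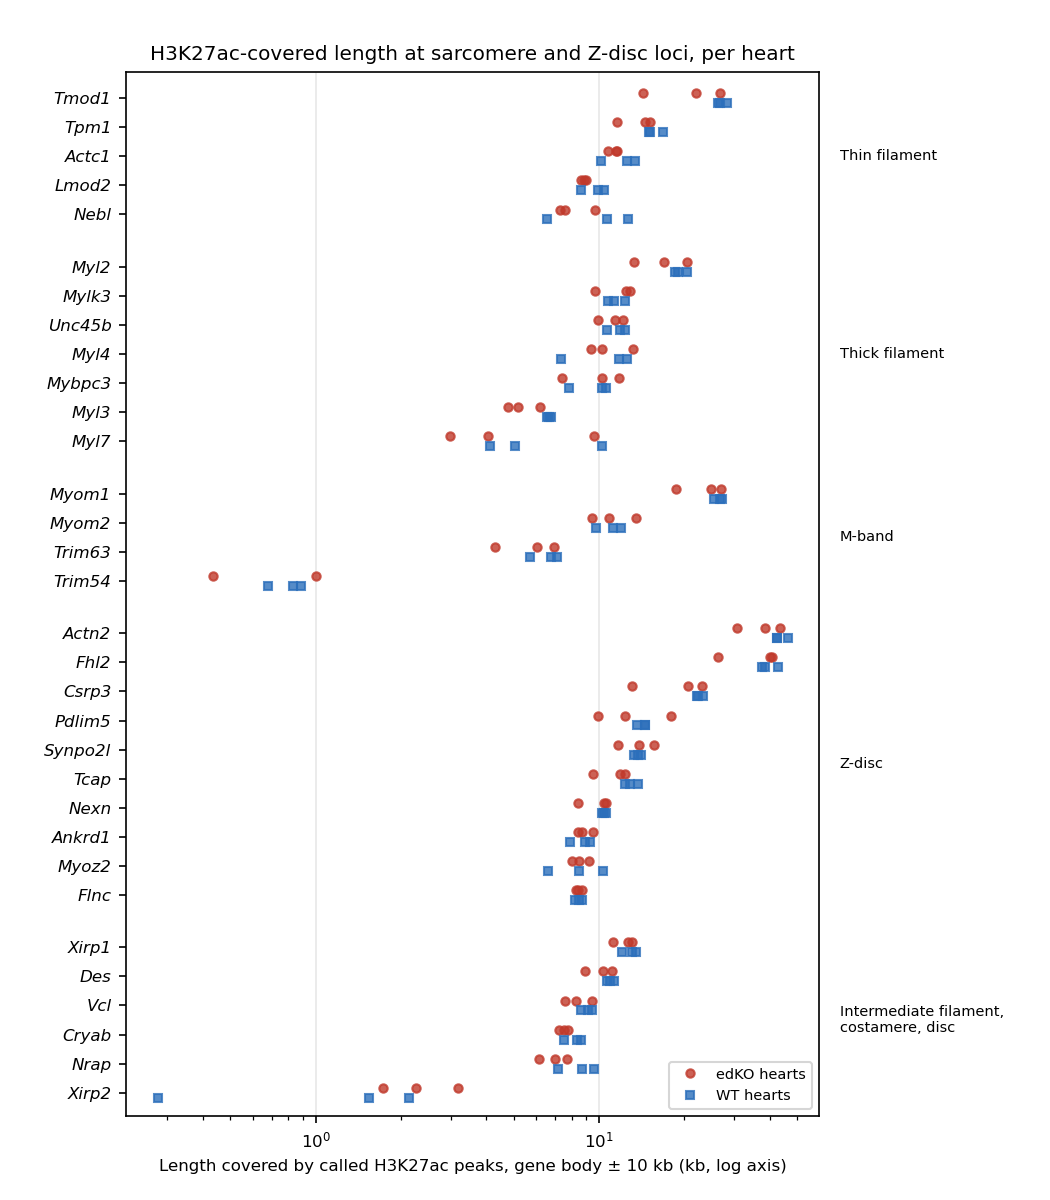
Length in kb (log axis) covered by called H3K27ac peaks at each of the 32 member loci with called regions, 1 point per heart, edKO hearts as red circles above and WT hearts as blue squares; loci are grouped by role and ordered by mean length. Most loci lie between 5 and 50 kb with the genotypes overlapping; Xirp2, Trim54 and Myl7 spread most, and the edKO heart with 0 bp at Trim54 cannot be drawn on a log axis.

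No member differed between the genotypes past the threshold. Covered length was compared as log2(bp + 200), centred per heart, with limma over all 14317 loci and Benjamini-Hochberg adjustment at 0.05. Of all loci, 15 (0.105%) were called lower in edKO hearts and 0 higher. Of the 32 members 0 were called, with adjusted p-values between 0.768 and 0.999 by limma. At an unadjusted p under 0.05 the count of members was also 0, against 6.61% of all loci. The estimate was below 0, that is lower in edKO hearts, at 20 of 32 members (62.5%), against 41.5% of all loci. The median log2 difference was -0.03 over the members and 0.03 over all loci. This lean depended on the scaling and the hearts: the members' median was 0.016 with 14 estimates below 0 under quantile normalization, and 0.032 with 15 below 0 without edKO heart 1.

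The 95% interval of the difference in covered length lay within a log2 of 1 on either side of 0 at 29 of 32 members (90.6%, against 91.0% of all loci). It lay within 0.5 at 24 members (75.0%, against 59.9%). For the width of the widest region of a locus the intervals were wider at the members than elsewhere: they lay within 1 at 28 members (87.5%, against 91.1%) and within 0.5 at 15 (46.9%, against 60.8%). In covered length the median SD between hearts of a genotype was 0.143 log2 units over the members and 0.166 over all loci. An adjusted p above the threshold does not show that the genotypes were alike.

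**Figure D2:**
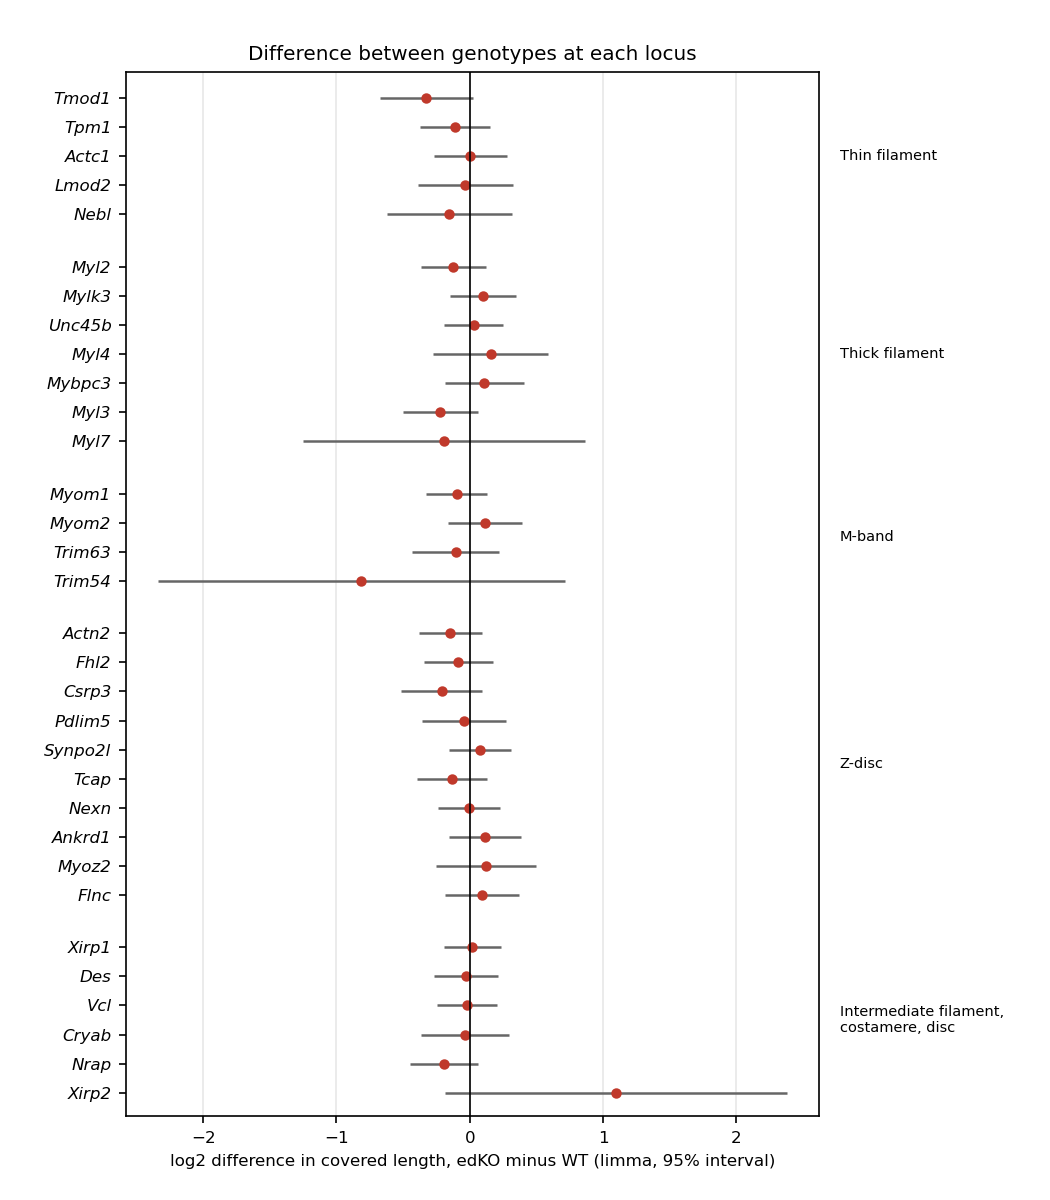
Log2 difference in covered length, edKO minus WT, at each of the 32 member loci with its 95% interval from limma, grouped by role; the vertical line marks 0. Every interval includes 0, and those of Xirp2, Trim54 and Myl7 are the widest.

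Among the thin filament genes, which were actin, its caps and its nucleators, 5 had called regions. The estimate was below 0 at 4 of the 5, with a median of -0.11. Actc1, the cardiac alpha-actin of the working heart, had 11550, 10716 and 11463 bp covered in edKO hearts 1, 3 and 6, against 13331, 12501 and 10140 bp in WT hearts 1, 3 and 4. Those ranges overlapped, and the centred log2 difference was 0.003 ± 0.118 (SE). Its window was covered almost evenly between the body and the upstream flank: the flank held 55.1% of the covered length in edKO hearts and 57.3% in WT hearts.

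Tmod1, tropomodulin, which caps the pointed end of the thin filament, had the smallest unadjusted p of all members. It had 22005, 14318 and 26655 bp in the edKO hearts, against 28315, 26236 and 26789 bp in the WT hearts. edKO hearts 1 and 3 lay below every WT heart and edKO heart 6 lay within the WT range. The log2 difference was -0.32 ± 0.15 (SE; 95% interval -0.67 to 0.02; limma adjusted p = 0.768), and -0.19 without edKO heart 3. The locus held 27 distinct regions over the 6 lists, of which 6 were called in every heart. Its promoter window was wholly covered in all 6 hearts. The remaining thin filament members were Tpm1, tropomyosin 1, which lies along actin, Lmod2, which nucleates and elongates thin filaments, and Nebl, with estimates of -0.11, -0.03 and -0.15.

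The thick filament group had 7 members, with 3 estimates below 0 and a median of 0.03. Myl2, the regulatory light chain of the ventricle, had 20440, 13287 and 16943 bp in edKO hearts, against 20361, 18540 and 18991 bp in WT hearts. edKO heart 1 lay above all WT hearts and edKO hearts 3 and 6 below them. The estimated log2 difference was -0.12 ± 0.11 (SE; limma adjusted p = 0.871). Mybpc3, the myosin-binding protein C that brakes crossbridges, Mylk3, the cardiac kinase of Myl2, and Unc45b, a chaperone that folds myosin heads, had estimates of 0.11, 0.10 and 0.03.

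Myl3, the essential light chain of the ventricle, was the only member with every edKO heart below every WT heart in length centred per heart. It had 5170, 4772 and 6204 bp in edKO hearts, against 6549, 6788 and 6651 bp in WT hearts. In bp that were not centred, Tcap had this order too. In centred lengths the order was found at 5.78% of all loci, and the reverse order at 7.12%, so 1 of 32 members is no more than the background share. At Myl3 the difference on the log2 scale was -0.22 ± 0.12 (SE; limma adjusted p = 0.822), and -0.115 without edKO heart 1. Its main region, 5380 bp over the gene, was called in all 6 hearts. The hearts differed in a pair of smaller regions outside it, at chr9:110758681-110759505, 4172 bp upstream, and chr9:110774590-110775647, 4787 bp downstream. Each was called in edKO heart 6 and in all 3 WT hearts.

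Myl4, the essential light chain of the atria and of the fetal ventricle, had 10198, 9351 and 13158 bp in edKO hearts, against 12509, 11717 and 7355 bp in WT hearts. WT heart 4 was the lowest of the 6 and edKO heart 6 the highest. The strongest region at this locus (chr11:104548487-104551645), which holds the promoter window printed above, also overlaps the neighbouring gene Cdc27, so its mark cannot be assigned to Myl4 alone. The log2 difference was 0.16 ± 0.19 (SE; limma adjusted p = 0.888), and without WT heart 4 it was -0.025. Set against its ventricular partner within each heart, the log2 ratio of Myl4 to Myl3 was 0.95, 0.94 and 1.06 in edKO hearts, against 0.91, 0.77 and 0.14 in WT hearts. All edKO ratios were above all WT ratios, edKO heart 3 by little, and WT heart 4 stood far below the rest. The ratio averaged 0.99 ± 0.07 in edKO hearts and 0.61 ± 0.41 in WT hearts (SD, n = 3 each). The difference of 0.38 gave p = 0.1 in an exact two-sided permutation test over 20 assignments, the smallest p this design allows, and an adjusted p of 0.2 over the 2 pairs tested. Without WT heart 4 the difference was 0.14.

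Myl7, the regulatory light chain of the atria, varied more between hearts of a genotype than between genotypes. It had 2979, 4066 and 9607 bp in edKO hearts, against 4112, 10223 and 5059 bp in WT hearts. edKO heart 6 and WT heart 3 stood high, and the other 4 hearts lay below them by a wide margin. The estimated log2 difference was -0.19 ± 0.45 (SE; limma adjusted p = 0.944). It was 0.23 without edKO heart 1, 0.15 without WT heart 3 and 0.22 over the gene body alone. The ratio of Myl7 to Myl2, on the log2 scale, averaged -1.72 ± 0.95 in edKO hearts and -1.66 ± 0.73 in WT hearts (SD, n = 3 each; difference -0.07, exact permutation p = 1.0). Of the mean covered length at Myl7, 57.6% in edKO hearts and 71.7% in WT hearts lay downstream of the gene. The edKO value rests mainly on edKO heart 6. In edKO hearts 1 and 3 the larger part did not lie downstream, and the widest region (1387 and 2061 bp) lay over the gene. With the 6 lists joined, the widest downstream stretch (chr11:5887859-5894735, 6877 bp) began 1901 bp from the gene. No single heart had a region wider than 3743 bp at this locus. The promoter window printed above, with its CArG box and the MCAT site beside it, was covered to 70.0%, 23.3% and 16.7% in edKO hearts and to 38.0%, 100% and 0% in WT hearts.

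**Figure D3:**
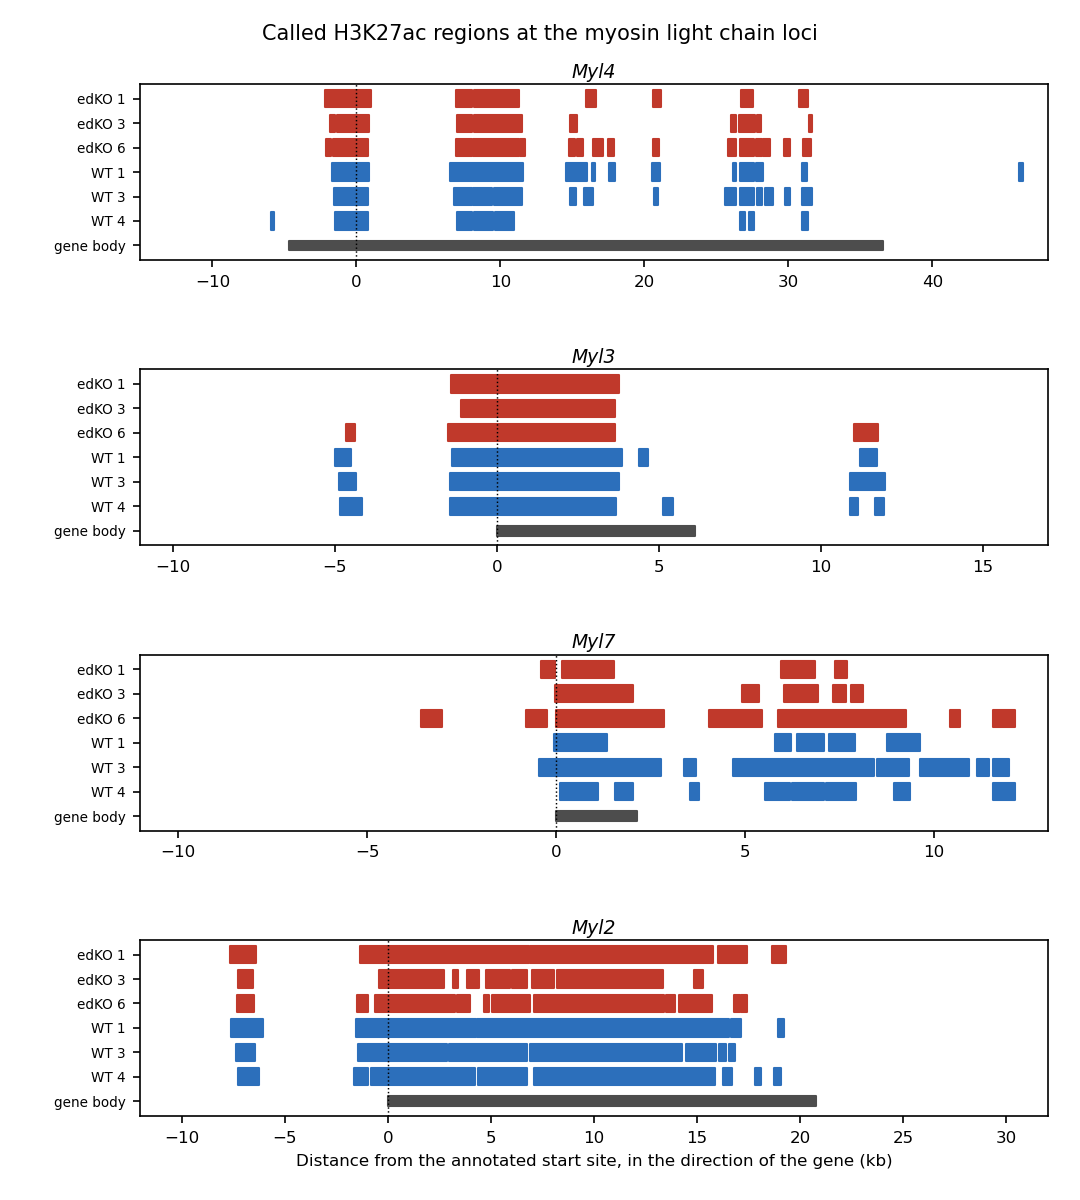
Called H3K27ac regions (bars) at the Myl4, Myl3, Myl7 and Myl2 loci in each heart, edKO hearts in red above WT hearts in blue, against the distance in kb from the annotated start in the direction of the gene; the grey bar is the gene body and the dotted line the start. Myl4, Myl3 and Myl2 have a region over the start in all 6 hearts, and at Myl7 the lengths of the downstream regions change from heart to heart within both genotypes.

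The 2 hearts that were high at Myl7 were also the highest at several loci that mark atrial muscle. Sln, sarcolipin, an atrial regulator of the calcium pump, had 0, 1082 and 2167 bp in edKO hearts, against 383, 2611 and 487 bp in WT hearts. Tbx5, a transcription factor of atria and left ventricle, had 13384, 18810 and 29188 bp in edKO hearts, against 13057, 25503 and 15532 bp in WT hearts. Nr2f1, Nr2f2 and Dkk3 had the same 2 hearts on top, edKO heart 6 being the highest and WT heart 3 the next. Not all 8 atrial markers did so. Nppa, atrial natriuretic peptide, also had them on top, with 6125 bp in edKO heart 6 and 4174 bp in WT heart 3, but WT heart 1 had 4042 bp. Bmp10 was called in edKO heart 6 alone, and Kcna5, an atrial potassium channel, was highest in edKO heart 1, with 7413 bp. Summed over the 8 loci the covered length was 42049 to 77254 bp in edKO hearts and 36510 to 64797 bp in WT hearts. The 6 ventricular markers summed to 66893 to 86238 bp in edKO hearts and 72897 to 83390 bp in WT hearts. The same 2 hearts also had the highest sums over markers of other cells. The 8 fibroblast markers summed to 42749 bp in edKO heart 6 and 54335 bp in WT heart 3, the skeletal markers to 30518 bp in edKO heart 6 and 30584 bp in WT heart 3, and the 7 cardiomyocyte markers to 185355 bp in edKO heart 6 and 182148 bp in WT heart 3. Smooth muscle, endothelial and ventricular markers did not have this pair on top. In summed length this pair was thus not on top at atrial markers alone, though WT heart 4 came close for cardiomyocytes with 181264 bp. Lengths centred per heart, as in the limma comparison, gave a different picture. Their mean log2 was highest in edKO heart 6 and WT heart 3 for the atrial list (1.023 and 0.28). The same held for the smooth muscle list (-0.217 and -0.28), but not for the fibroblast, skeletal and cardiomyocyte lists. What part the makeup of the hearts or the lists had in the order at Myl7 was not tested.

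**Figure D4:**
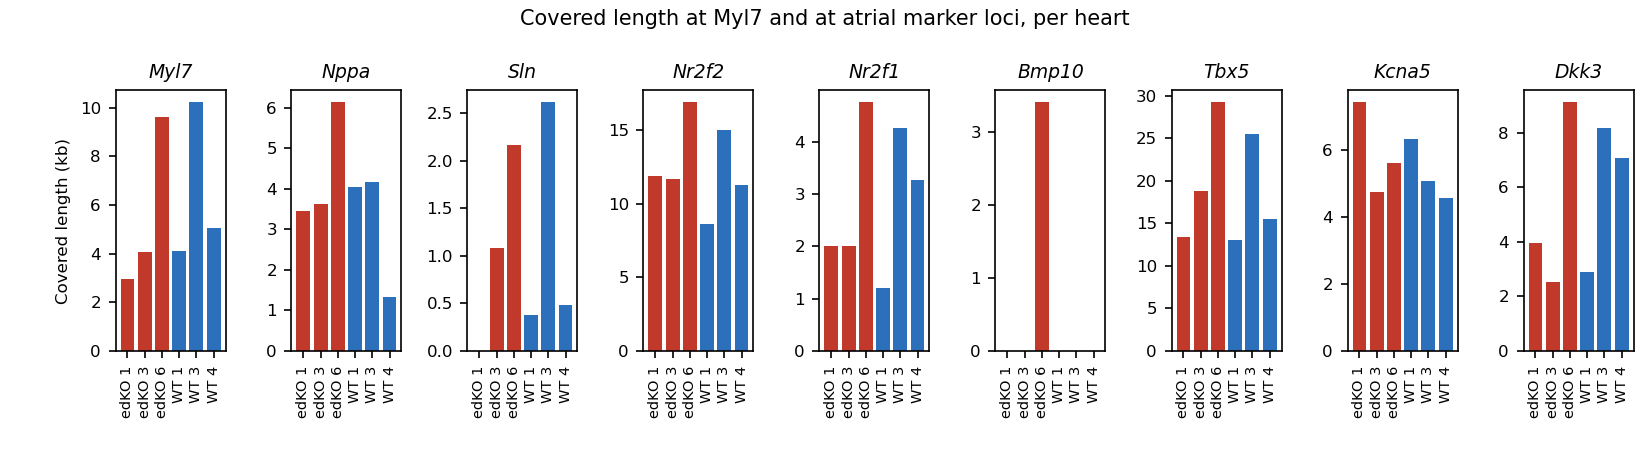
Covered length in kb at Myl7 and at the 8 atrial marker loci, 1 bar per heart with edKO hearts in red left of WT hearts in blue; each panel has its own axis from 0, and an empty place is 0 bp. edKO heart 6 and WT heart 3 are the 2 highest at Myl7, Nppa, Sln, Nr2f2, Nr2f1, Tbx5 and Dkk3, and not at Bmp10 and Kcna5.

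The M-band group had 4 members, with 3 estimates below 0 and a median of -0.10. Myom1, myomesin, which crosslinks thick filaments, was among the longest of all members in covered length. It had 26991, 18665 and 24832 bp in edKO hearts, against 26621, 25481 and 27179 bp in WT hearts. The genotypes overlapped, edKO heart 3 being the lowest, and the log2 difference was -0.10 ± 0.10 (SE; limma adjusted p = 0.878). A region of 8871 bp called in all 6 hearts also overlaps Myl12a, so this length cannot be assigned to Myom1 alone. With regions given to the nearest gene the difference was -0.256. Myom2, the myomesin of fast and adult fibres, and Trim63, MuRF1, a ubiquitin ligase that turns over sarcomere proteins, had estimates of 0.11 and -0.11.

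Trim54 had the least covered length of the members with called regions. It had 0, 433 and 1001 bp in edKO hearts, against 887, 832 and 680 bp in WT hearts. edKO heart 1 had no called region and edKO heart 6 had the highest value, so the groups overlapped. The difference on the log2 scale was -0.81 ± 0.66 (SE; limma adjusted p = 0.871), and -0.024 without edKO heart 1. The part of the locus that was covered also shifted: the promoter window was covered to 0%, 12.3% and 31.7% in edKO hearts and to 100%, 100% and 71.7% in WT hearts. Every edKO heart was below every WT heart in this window. The sequence of the window, printed above, holds 2 MCAT sites.

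In all, 35 member promoter windows, alternative starts included, were touched by a called region in at least 1 heart. Of these, 27 (77.1%) were covered from end to end in all 6 hearts, against 57.7% of 12164 windows of all genes. The covered share was lower in every edKO heart at 2 windows (5.71%, against 1.18% of all), those of Trim54 and Trim63. At Trim63 it was 91.7%, 77.3% and 83.7% in edKO hearts and 92.7%, 100% and 93.7% in WT hearts, so edKO heart 1 and WT heart 1 were 1 percentage point apart. The covered share was higher in every edKO heart at 1 window (2.86%, against 0.337% of all), that of Xirp2. A single window with 3 hearts against 3 cannot go below an exact p of 0.1, and no test was made.

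At Xirp2 the promoter window, which holds a MEF2 site, was covered to 67.7%, 100% and 68.0% in edKO hearts and to 35.7%, 21.7% and 28.0% in WT hearts. The genotypes did not overlap there. The covered length of the whole locus was 2259, 3187 and 1735 bp in edKO hearts, against 2143, 1548 and 277 bp in WT hearts. These ranges did overlap, with WT heart 4 far below the other hearts. The log2 difference of 1.10 ± 0.55 (SE) was the highest of the members (limma adjusted p = 0.801). Without WT heart 4 it was 0.46. The locus held 2 distinct regions. The one at the start was called in all 6 hearts, and the other (chr2:67505785-67506859, inside the gene) in all but WT heart 4. The strongest entry stood at percentile 63.4, 68.5 and 42.0 of the lists of the edKO hearts, and 64.1, 47.1 and 9.14 of those of the WT hearts, so these were peaks of middling or low rank.

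**Figure D5:**
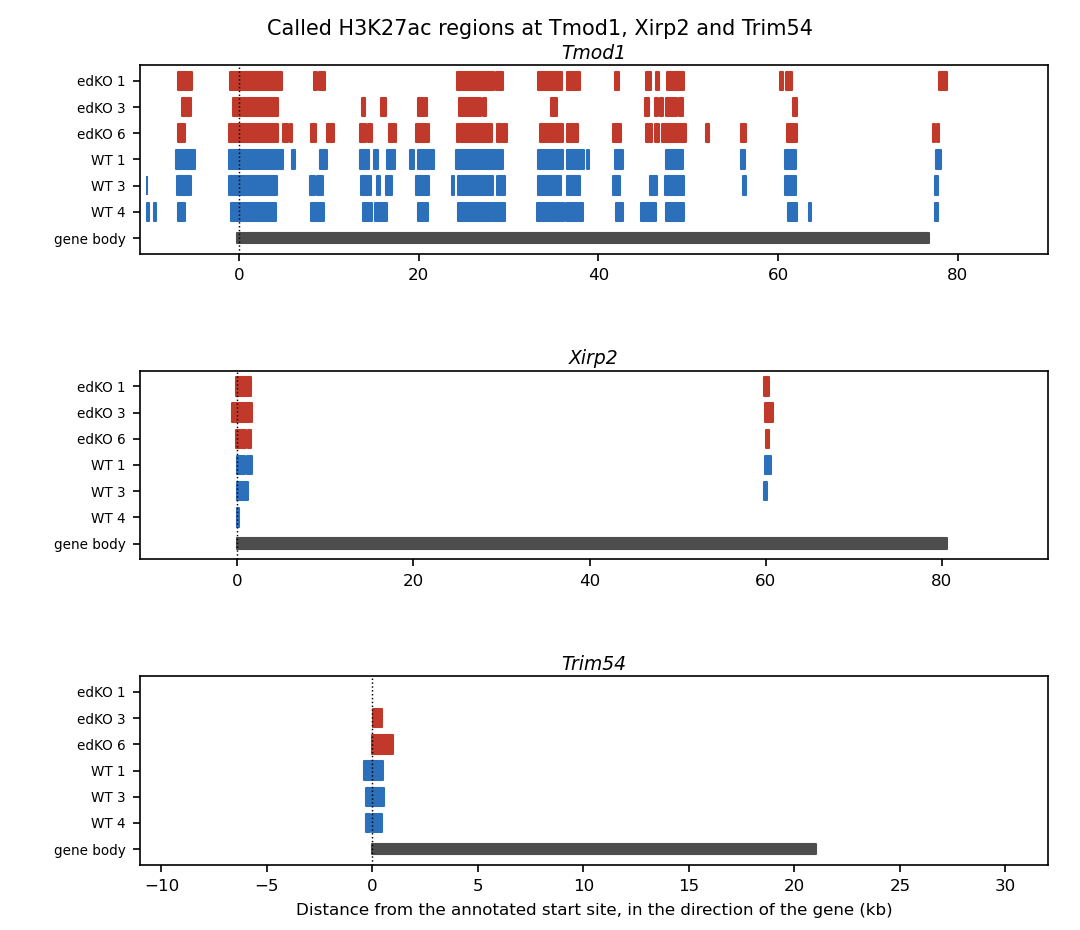
Called H3K27ac regions (bars) at Tmod1, Xirp2 and Trim54 in each heart, edKO hearts in red above WT hearts in blue, against the distance in kb from the annotated start in the direction of the gene; the grey bar is the gene body and the dotted line the start. Tmod1 has many regions inside the gene that come and go between hearts around 6 called in all, Xirp2 has a region at the start and a further one inside the gene, and Trim54 has none in edKO heart 1.

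The Z-disc group was the largest, with 10 members, 6 estimates below 0 and a median of -0.03. Its estimates ran from -0.21 to 0.12. Actn2, the sarcomeric alpha-actinin that crosslinks thin filaments, had the greatest covered length of all members. It had 38374, 30604 and 43541 bp in edKO hearts, against 46171, 42466 and 42243 bp in WT hearts. edKO heart 6 lay within the WT range and the other edKO hearts below it. The log2 difference was -0.14 ± 0.10 (SE; limma adjusted p = 0.857). Nearly all of it lay inside the gene, 99.0% in either genotype, in 19 distinct regions of which 6 were called in all hearts.

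Csrp3 had 23050, 13036 and 20534 bp in edKO hearts, against 22189, 22257 and 23237 bp in WT hearts. edKO heart 3 was the lowest and edKO heart 1 fell among the WT hearts. The estimated log2 difference was -0.21 ± 0.13 (SE; limma adjusted p = 0.853), and -0.084 without edKO heart 3. Fhl2, a LIM protein of the Z-disc and I-band that also acts in the nucleus, had 40073, 26350 and 40860 bp in edKO hearts, against 42753, 37623 and 38535 bp in WT hearts. The genotypes overlapped, with a log2 difference of -0.09 ± 0.11 (SE; limma adjusted p = 0.895), and -0.001 without edKO heart 3. edKO heart 3, whose list covered the least of the genome, was the lowest of the 6 hearts at Tmod1, Csrp3, Actn2, Fhl2, Myom1, Myl2, Myl3 and Nrap. The other members of the group were Tcap, Myoz2, a calsarcin that tethers calcineurin, Nexn, Pdlim5, Synpo2l, Ankrd1, a stretch-responsive titin partner, and Flnc, filamin C.

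The last group, of intermediate filaments, their chaperone and the proteins of the costamere and intercalated disc, had 6 members, with 4 estimates below 0 and a median of -0.02. Nrap, an anchor of assembling myofibrils at the cell end, had 7677, 6144 and 6997 bp in edKO hearts, against 9618, 8709 and 7138 bp in WT hearts. Only edKO heart 1 and WT heart 4 crossed. The difference on the log2 scale was -0.19 ± 0.11 (SE; limma adjusted p = 0.836). The estimates of Cryab, a chaperone of desmin, Vcl, vinculin of the costamere, and Xirp1, a relative of Xirp2, were -0.035, -0.020 and 0.020. Des, desmin, which ties Z-discs together, had 10305, 8948 and 11145 bp in edKO hearts, against 10623, 11273 and 10931 bp in WT hearts. The genotypes overlapped, and the estimate was -0.03 ± 0.10 (SE; limma adjusted p = 0.962).

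The widest region of a locus, counted to its full width, gave no call either. Of all loci, 8 (0.0559%) were called lower in edKO hearts and 0 higher by limma, and of the 32 members 0 were called in either direction, at adjusted p-values of 0.9995 or above. At an unadjusted p under 0.05 the count of members was 0, against 4.62% of all loci. The estimate was below 0 at 18 of the 32 (44.8% of all loci), and the median was -0.03, against 0.02 over all loci. In width centred per heart, no member had its genotypes apart without overlap, against 4.51% of all loci with edKO lower and 5.48% with edKO higher. The smallest p was that of Myl2, whose widest region measured 8873, 5128 and 6323 bp in edKO hearts, against 12218, 7402 and 8771 bp in WT hearts. Here edKO heart 1 alone lay above any WT heart. On the log2 scale the widths differed by -0.45 ± 0.21 (SE; limma adjusted p = 0.9995). Csrp3 followed with 10646, 5756 and 6257 bp in edKO hearts, against 11158, 10939 and 7243 bp in WT hearts. Des had 4414, 3723 and 5855 bp in edKO hearts, against 5879, 5854 and 5543 bp in WT hearts. Both overlapped between genotypes, and their log2 differences were -0.36 ± 0.20 and -0.29 ± 0.17 (SE). These widths depended on where a region was taken to end: with regions within 1 kb joined, the log2 difference was -0.11 at Myl2, -0.91 at Csrp3 and -0.024 at Des, and none passed the adjusted threshold of limma.

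Single regions were also followed from heart to heart. The lists joined into 296 distinct regions in the member loci, of which 109 (36.8%) were called in all 6 hearts, against 38.4% of 60759 regions in the loci of all protein-coding genes. A further 96 (32.4%) were called in 1 heart alone. Of the rest, 5 were seen in each WT list but absent from every edKO list (1.69%, against 1.02% of all). The converse, each edKO list and no WT list, was found for 0 regions (against 0.0593% of all). These shares lie near those of all loci.

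The 5 regions were short and of low rank. The widest lay inside Myom1 (chr17:71089694-71090591, 898 bp), where its strongest entry stood at percentile 41.6, 19.5 and 18.6 of the lists of WT hearts 1, 3 and 4. A pair lay next to each other inside Actn2, at chr13:12307882-12308733 (852 bp) and chr13:12307107-12307829 (723 bp). One lay 930 bp upstream of Tpm1 (chr9:67050603-67051297, 695 bp), and one 1631 bp from Tcap (chr11:98381713-98382179, 467 bp). None of the 5 reached a percentile above 46.7 in any WT heart. When each list was cut to the length of the shortest by significance, 0 such regions remained, and 2 were called in edKO hearts alone.

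Other sarcomere and Z-disc genes were listed by name for comparison, 59 in all, and 57 of them were tested. By limma 0 were called (0.105% of all loci). At an unadjusted p under 0.05, 6 of the 57 were lower and 3 higher in edKO hearts, against 662 lower and 284 higher of all 14317 loci. Their share in either direction was above the 6.61% of all loci. In length centred per heart, every edKO heart was below every WT heart at 6 of the 57, against 5.78% of all loci. The reverse held at 5, against 7.12% of all loci. The estimate was below 0 at 32 of the 57 (56.1%, against 41.5% of all loci), with a median of -0.03. The smallest p belonged to Synpo2, myopodin, an actin-bundling partner of Z-disc proteins. It had 17861, 14259 and 18513 bp in edKO hearts, against 35443, 31403 and 24107 bp in WT hearts, and the genotypes did not overlap. The log2 difference was -0.74 ± 0.12 (SE; limma adjusted p = 0.102). Tmod2, the neuronal tropomodulin, had 2749, 1733 and 2321 bp in edKO hearts, against 1365, 1699 and 1491 bp in WT hearts (log2 difference 0.59, limma adjusted p = 0.199). Cavin4, a muscle caveolar protein found near Z-discs, had 3241, 2646 and 2586 bp in edKO hearts, against 4551, 4992 and 3580 bp in WT hearts (log2 difference -0.51, limma adjusted p = 0.357). Each of the 3 loci had its genotypes apart, and none passed the adjusted threshold.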

How the data were processed

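The authors deposited 1 narrowPeak list per heart. Its signal column is the fold enrichment of a peak, a ratio to background, and further deposited columns give significance as a −log10 p-value or −log10 q-value. These values are the authors' own and only ranked or filtered peaks within a list. Cutadapt, BWA, SAMtools and MACS2 and the builds mm10 and GRCm38 are named in the submitters' processing notes, without versions. MACS2 settings, and whether inputs served as controls, were not stated there. The 6 inputs were not used here. Hearts were grouped by the genotype label.

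Touching or overlapping entries were merged into regions. Per heart and gene, the bases covered within the body and its 10 kb flanks were added up, transformed to log2(bp + 200) and centred by subtracting the heart's mean over the loci covered in every list. Loci averaging at least 500 bp entered limma (version 3.58.1, R 4.3.3), run with a trended, robust empirical Bayes prior and Benjamini-Hochberg adjustment at 0.05. The scale understates changes at loci with little covered length. The procedure was tested on simulated data with planted differences larger than most estimates at the members. That simulation does not show what would be found among differences of the size seen here. The plan named 3 isoform pairs, of which 2 could be tested, and their ratios were adjusted over those 2. Promoter and motif counts used Python 3.11.15, pandas 2.3.3 and scipy 1.17.1. Alternatives were smaller and larger pseudocounts, no filter on low loci, other windows, stricter or equal-length lists, other scalings, limma without trend or robust prior, a replicate block and each heart left out. Per-heart depth is unknown, so no counting interval is given.

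Members and lists were chosen with earlier results of these data known. Values per heart are printed for the isoform genes, the 8 members with the smallest p for covered length and the 3 for the widest region, the 4 most and the 4 least covered, and regions restricted to a genotype. The promoter windows printed, and the other members named with an estimate, were chosen after their values were seen.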

Additional observations from a re-analysis of the deposited data

How the results depend on the processing

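No member passed the adjusted threshold of limma under any alternative run, over 575 values of covered length from up to 18 alternatives and 384 values of the widest region from 12. The sign of the estimate turned in 64 of the 575 and 48 of the 384. Among the members given by heart, Actn2, Myl2, Myl3, Csrp3, Tmod1, Xirp2 and Nrap kept their direction in covered length. Actc1 turned to -0.062 with lists of equal length, -0.045 with 50 kb flanks, -0.083 with no centring, -0.010 with a pseudocount of 1000 bp, -0.015 with stricter lists (−log10 q of at least 5) and -0.032 with heart number as a replicate block. Other members turned under 1 alternative each beside the left-out hearts: Fhl2 to 0.066 with equal lists, Myl7 to 0.222 over the gene body, Trim54 to 0.123 with 50 kb flanks, Myom1 to 0.001 and Des to 0.026 with quantile normalization, and Myl4 to -0.126 with the replicate block. With each heart left out, Actc1 ranged over -0.082 to 0.071, Myl7 over -0.621 to 0.232, Myl4 over -0.025 to 0.285 and Des over -0.062 to 0.038. The values without a heart were Actn2 -0.219 to -0.087, Myl2 -0.193 to -0.083, Myl3 -0.283 to -0.115, Myom1 -0.165 to -0.026, Nrap -0.256 to -0.111. The Myl7 to Myl2 ratio turned to 0.318 over the gene body and 0.037 with equal lists, and ranged over -0.524 to 0.423 with each heart left out. The members' median was -0.12 with no centring, which moved the median of all loci to -0.052, 0.024 over the gene body and 0.016 with quantile normalization, and -0.062 to 0.032 with a heart left out; estimates below 0 numbered 14 to 24 over all alternatives.

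The counts over all loci moved more. The 15 loci called lower in covered length became 6 with equal lists, 31 with 50 kb flanks, 7 (and 3 higher) with regions given to the nearest gene, 9 with stricter lists and 0 to 9 (higher 0 to 1) with a heart left out. For the widest region the 8 became 3 with no centring, 21 (and 3 higher) with regions within 1 kb joined, and 0 to 3 (higher 0 to 2) with a heart left out. The members' median then ranged over -0.072 to 0.064. With the replicate block 90 and 0 loci were called lower by the 2 measures. Hearts 1 and 3 share only a number: deviations of same-numbered hearts correlated across 14317 loci at 0.179 and 0.032, against -0.244 to 0.143 for other pairs. The 5 member regions called in WT hearts alone became 1 with stricter lists and 0 with equal lists, where the 0 called in edKO hearts alone became 2. The cause of these shifts was not tested.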
